A study of Mus musculus with 49 samples.

Results

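Nitric oxide, arginine and itaconate enzymes were followed in mouse bone-marrow-derived macrophages (BMDM) through 7 genes, Nos2, Arg1, Arg2, Ass1, Acod1, Slc7a2 and Gch1. They were taken by name from the 14896 genes of the macrophage expression table, and all 7 were listed. The series holds 49 samples and compares mice that lack the transcription factor Elf4, a member of the ETS family, or that carry the Elf4 W250S change, with WT mice. The macrophage arm has 18 RNA libraries of C57BL/6 cells grown for 7 days in M-CSF, a growth factor that drives marrow cells into macrophages. They form 6 groups of 3 libraries: WT and Elf4 KO cells left without treatment (0 h), and both genotypes after 4 h and after 16 h of lipopolysaccharide (LPS, a bacterial cell wall component) at 100 ng/ml. The labels name the genotype "Elf4 KO" with no detail of the allele, and the table's header gives each library a mouse number of its own.

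Activated macrophages use arginine in opposing ways. Inducible nitric oxide synthase (Nos2) splits it into nitric oxide and citrulline and needs the cofactor tetrahydrobiopterin, whose synthesis starts with Gch1, while the arginases Arg1 and Arg2 turn arginine into ornithine and urea. Slc7a2 carries arginine into the cell, Ass1 helps to rebuild it from citrulline, and Acod1 makes itaconate from an intermediate of the citric acid cycle. LPS is known to raise Nos2, Acod1 and Gch1 through NF-kB and interferon signalling in macrophages, and Arg1 is better known as a gene of interleukin-4 and tissue-repair programmes.

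RefSeq promoter sequence on GRCm38.p6 was at hand for 3 of the 7 genes, Acod1, Gch1 and Ass1. These 3 are shown for that reason alone. Like the other 4 genes, all 3 rose under LPS by 16 h. They did so by very different amounts and with different courses, and of these 3 only Gch1 was called lower in KO cells at 16 h. Each line holds the 250 bases before the start of the gene, 5′ to 3′ on the strand of the gene. Acod1 lies on chromosome 14 from 103047012 to 103056573, and its window is chr14:103046762-103047011 on the plus strand. Gch1 lies on chromosome 14 from 47153895 to 47189413, and its window is chr14:47189414-47189663 on the minus strand. Ass1 lies on chromosome 2 from 31470270 to 31520670, and its window is chr2:31470020-31470269 on the plus strand. Capitals mark matches to the motifs listed after the sequences.
Acod1: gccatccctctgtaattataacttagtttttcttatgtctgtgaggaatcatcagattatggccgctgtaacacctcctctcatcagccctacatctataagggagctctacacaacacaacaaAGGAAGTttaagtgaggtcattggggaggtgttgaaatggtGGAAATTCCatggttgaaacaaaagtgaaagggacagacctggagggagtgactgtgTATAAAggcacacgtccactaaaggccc
Gch1: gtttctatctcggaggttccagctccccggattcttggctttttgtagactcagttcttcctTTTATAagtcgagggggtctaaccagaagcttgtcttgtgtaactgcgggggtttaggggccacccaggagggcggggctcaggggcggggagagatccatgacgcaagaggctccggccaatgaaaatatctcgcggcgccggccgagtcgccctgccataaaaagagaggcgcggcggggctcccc
Ass1: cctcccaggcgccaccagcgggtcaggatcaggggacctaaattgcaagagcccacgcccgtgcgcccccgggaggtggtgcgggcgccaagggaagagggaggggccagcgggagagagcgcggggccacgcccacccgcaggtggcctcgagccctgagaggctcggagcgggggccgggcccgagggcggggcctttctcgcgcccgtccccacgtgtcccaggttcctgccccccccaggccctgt
8 motifs were searched on both strands of these windows and of the same window in 32851 RefSeq promoters. They were a kappa B form GGNNTTTCC (in 4.93% of promoters), an interferon response form GAAANNGAA (7.13%), a C/EBP form TTGCNNCAA (1.74%), an AP-1 form TGANTCA (6.75%), the ETS forms CCGGAAGT (2.88%) and AGGAAGT (7.69%), a STAT form TTCNNNGAA (7.02%) and TATAAA (12.4%). The 2 ETS forms share GGAAGT but cannot match at the same place. Acod1 held AGGAAGT starting 126 bases before the gene, TATAAA starting 28 bases before it, and the kappa B form on the opposite strand, its leftmost base 85 bases before the gene. Gch1 held TATAAA on the opposite strand, its leftmost base 188 bases before the gene, and Ass1 held none of the 8. The motif letters were settled after the sequences had been seen. A match describes letters and shows no binding, and a motif that was not found is only absent in these letters from this window. The other 4 genes are located by the same annotation only: Nos2 on chromosome 11 from 78920787 to 78960226, Arg1 on chromosome 10 from 24915207 to 24927470, Arg2 on chromosome 12 from 79130788 to 79156301 and Slc7a2 on chromosome 8 from 40862341 to 40922070.

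Values are CPM as deposited (read counts scaled to a fixed library total), at 11529238 to 16753702 reads a library. This depth was estimated by taking the most frequent value of each library, apart from the table's floor value, as 1 read. Differences are on the log2(CPM + 1) scale, and a gene was called where limma's adjusted p (Benjamini-Hochberg over the 12058 genes that reached 1 CPM in 3 or more of the libraries) was below 0.05. Elf4 itself was listed at 96.4, 108 and 112 CPM in WT and 21.4, 19.1 and 25.5 CPM in KO at 0 h, at 74.3, 64.6 and 67.1 against 15.8, 15.5 and 20.2 CPM at 4 h, and at 129, 134 and 131 against 32.6, 27.7 and 28.4 CPM at 16 h. The 9 KO libraries were all below the 9 WT libraries, so the labels held for this gene, which kept some reads in KO cells. All 8 macrophage markers, among them Adgre1, Csf1r and Cd68, were above 1 CPM on average in every group, with summed levels of 14142 to 30813 CPM a library. Stromal markers (9 genes, led by collagens) summed to 282 to 948 CPM in WT libraries and 409 to 2796 CPM in KO libraries, and KO replicate 2 had the highest sum at each time. Neutrophil markers summed to at most 16.4 CPM, and Ly6g and Retnlg were not listed.

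LPS raised every one of the 7 genes by 16 h, and 6 of them by 4 h, the exception being Arg1. At 4 h none of the 7 was called between WT and KO cells by limma. By 16 h the KO cells held less of 2 genes on the nitric oxide side, Nos2, at 168 against 363 CPM, and Gch1, at 70.9 against 94.3 CPM. Arg1, Arg2, Ass1, Acod1 and Slc7a2 were not called between the genotypes at any time. In RNA from whole cultures, fewer cells that express a gene and less RNA per cell cannot be told apart.

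**Figure D1:**
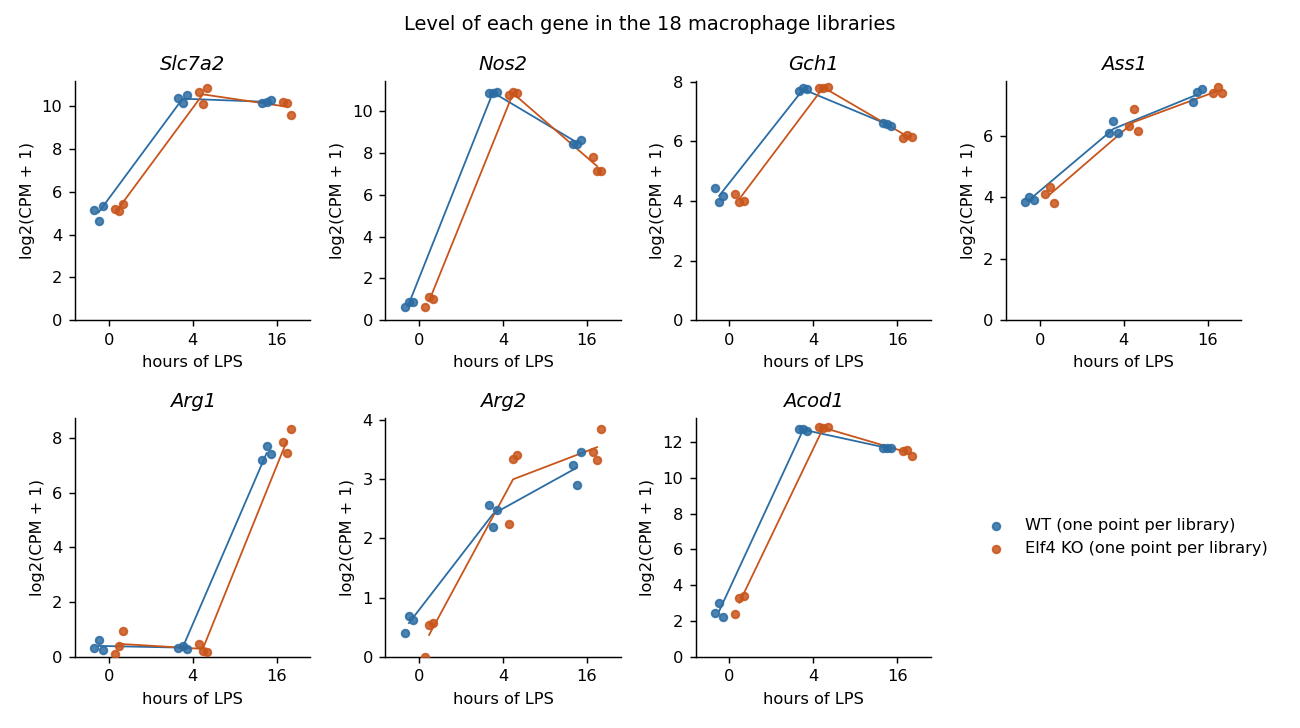
Level of each gene, as log2(CPM + 1), against hours of LPS in the 18 macrophage libraries. Each point is 1 library (WT blue, Elf4 KO orange, points set side by side for clarity), and lines join the group means. 6 genes rise by 4 h in both genotypes while Arg1 rises only between 4 and 16 h, and at 16 h the 3 KO points of Nos2 (141 to 222 CPM) lie below the 3 WT points (342 to 399 CPM).

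The transporter Slc7a2 (also known as CAT2) supplies arginine from outside the cell. At 0 h, Slc7a2 stood at 34.4, 24.2 and 39.0 CPM in the WT libraries and at 35.8, 32.8 and 42.7 CPM in the KO libraries. After 4 h of LPS the WT libraries held 1317, 1152 and 1472 CPM of Slc7a2 and the KO libraries 1636, 1113 and 1868 CPM. At 16 h, Slc7a2 was at 1139.9, 1158 and 1245 CPM in WT and at 1171, 1152 and 761 CPM in KO. In both genotypes every LPS library lay far above every untreated one, and the 2 genotypes overlapped at each time. On the log2 scale Slc7a2 rose by 5.31 in WT (limma adjusted p = 4.65e-14) and by 5.31 in KO (adjusted p = 5.31e-14) from 0 to 4 h, which is 40.4-fold and 41.5-fold in mean CPM. The difference of KO from WT was 0.20 at 0 h (95% interval -0.21 to 0.61), 0.20 at 4 h (-0.21 to 0.61) and -0.23 at 16 h (-0.64 to 0.19). Between 4 and 16 h Slc7a2 moved by -0.15 in WT (adjusted p = 0.509) and fell by 0.58 in KO (adjusted p = 0.0131). The fall in KO cells was not called without KO replicate 3 at 4 h (-0.42, adjusted p = 0.0786) or at 16 h (-0.37, adjusted p = 0.0945). After median-ratio scaling the change in WT was called too, at -0.60 (adjusted p = 0.0185). With the values as deposited, the limma test of the difference between the genotypes' changes gave -0.43 (adjusted p = 0.397).

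Nos2, the enzyme that makes nitric oxide in activated macrophages, was nearly silent before LPS. Untreated WT libraries held 0.562, 0.841 and 0.801 CPM of Nos2 and untreated KO libraries 0.524, 1.15 and 1.04 CPM. By 4 h Nos2 had reached 1876, 1897 and 1948 CPM in WT and 1761, 1918 and 1879 CPM in KO. Its 16 h values were 348, 342 and 399 CPM in WT and 222, 141 and 141 CPM in KO. The genotypes overlapped at 0 h and at 4 h, and at 16 h every KO library lay below every WT library. The untreated values stand on 7 to 18 reads a library and the 16 h values on 1887 to 5770 reads. At 16 h KO differed from WT by -1.13 ± 0.146 (SE, 95% interval -1.44 to -0.83, limma adjusted p = 5.90e-05), a mean 2.16-fold lower, and 0.780% of the 12058 genes had a lower value. At 4 h the difference was -0.042 (95% interval -0.35 to 0.27, adjusted p = 0.914), and at 0 h it was 0.12 (-0.18 to 0.43, adjusted p = 0.899).

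The genotypes parted after 4 h. Between 4 and 16 h Nos2 fell by 2.39 in WT (adjusted p = 1.01e-10) and fell by 3.48 in KO (adjusted p = 8.08e-13), so that the 16 h mean was 5.25-fold below the 4 h mean in WT and 11.0-fold below it in KO. The change of the KO effect was itself called, at -1.09 ± 0.207 (SE) from 4 to 16 h (limma adjusted p = 0.00957) and -1.26 ± 0.207 from 0 to 16 h (adjusted p = 0.00366). These 2 tests share the 16 h libraries. Among all genes, 1.92% were called lower in the first and 2.83% in the second, and Nos2 was the 1 of the 7 called in each. The counts over all genes hang on single libraries: 489 genes were called in either direction in the first, from 195 (without WT replicate 1 or 3 at 16 h) to 898 (without KO replicate 2 at 4 h), and 778 in the second, from 282 (without WT replicate 2 at 0 h) to 1031. From 0 to 4 h the KO effect on Nos2 moved by -0.17 (95% interval -0.60 to 0.27).

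The lower Nos2 at 16 h did not rest on 1 library. Leaving out each 16 h library in turn gave differences of -1.35 to -1.03, with adjusted p of 2.49e-06 to 6.48e-04, and leaving out KO replicate 2, the library highest in stromal markers, at all 3 times gave -1.03 (adjusted p = 4.81e-04). Stromal markers summed to 512, 686 and 948 CPM in the 16 h WT libraries and to 1379, 2796 and 868 CPM in the 16 h KO libraries. Nos2 in these KO libraries, in the same order, was at 222, 141 and 141 CPM. The part of stromal RNA in the lower Nos2 was not tested. Macrophage markers summed to 19960 to 21248 CPM in WT and 25104 to 30813 CPM in KO at 16 h. That sum is led by Lyz2, at a mean of 8806 CPM in WT and 15168 CPM in KO. The list did not move as 1: of its 8 genes 3 were called higher in KO and 1 lower. Mean Cd68 was 565 CPM in WT and 403 CPM in KO, and Fcgr1 and Cd14 were also lower on average in KO.

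Gch1 encodes GTP cyclohydrolase, the first enzyme on the way to the tetrahydrobiopterin that Nos2 needs. Gch1 was listed at 20.4, 14.4 and 16.8 CPM in WT and at 17.8, 14.8 and 14.9 CPM in KO before LPS. Its 4 h values were 204, 222 and 216 CPM in WT and 222, 223 and 227 CPM in KO. After 16 h WT libraries had 97.2, 94.9 and 90.9 CPM of Gch1 and KO libraries 68.9, 73.6 and 70.1 CPM. The genotypes overlapped at 0 h. At 4 h the KO libraries sat just above the WT libraries and at 16 h clearly below them, in both cases with no overlap. At 16 h KO differed from WT by -0.41 ± 0.0946 (SE, 95% interval -0.61 to -0.21, limma adjusted p = 0.00441), a mean 1.33-fold lower. The 4 h difference was 0.064 (95% interval -0.13 to 0.26, adjusted p = 0.776) and was not called. Gch1 rose by 3.57 in WT and 3.75 in KO from 0 to 4 h, and then fell by 1.17 in WT and fell by 1.65 in KO to 16 h, with all 4 changes called (adjusted p = 3.98e-09 for the smallest of these falls). The KO effect moved by -0.47 from 4 to 16 h (95% interval -0.75 to -0.19), which missed the threshold (adjusted p = 0.0561) and passed it with a pseudocount of 3 (adjusted p = 0.0434) and with the replicate number as a block (adjusted p = 0.0353).

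**Figure D2:**
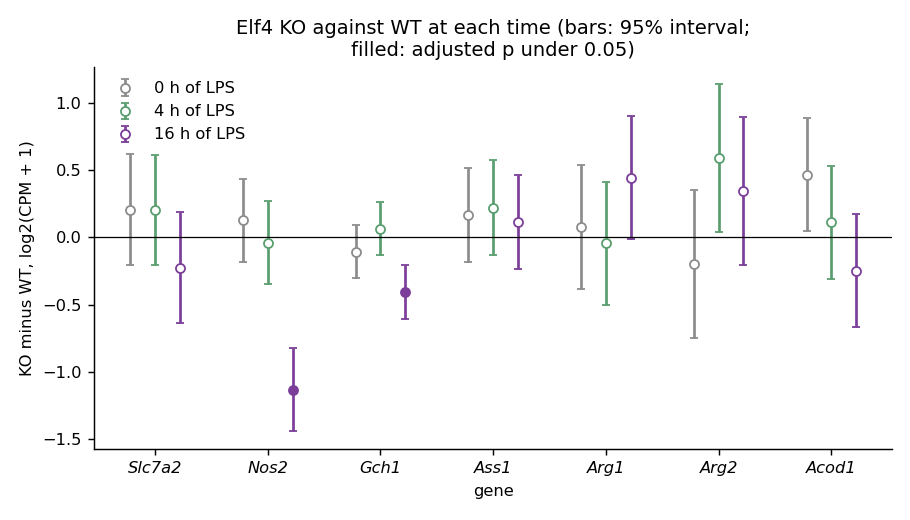
Difference of Elf4 KO from WT on the log2(CPM + 1) scale (vertical axis) for the 7 genes at 0, 4 and 16 h of LPS, with 95% intervals from limma. Filled points passed an adjusted p of 0.05. Only the 16 h points of Nos2 (-1.13) and Gch1 (-0.41) are filled.

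At 16 h the count was therefore 2 of the 7 genes lower in KO cells and 0 higher, where 9.65% of all tested genes were called lower and 20.9% higher. Those shares rest on how libraries are scaled. Under median-ratio scaling the median difference of all genes moved from 0.12 to 0.024 and the calls from 2520 higher and 1163 lower to 1507 higher and 1681 lower, while Nos2 stood at -1.25 (adjusted p = 1.81e-05) and Gch1 at -0.52 (adjusted p = 0.00144). The groups did not overlap for 3 of the 7 at 16 h, with Nos2, Gch1 and Acod1 lower in KO (15.1% of all genes), and for 2 of the 7 at 4 h, with Acod1 and Gch1 higher in KO (12.9%). No gene of the 7 was called at 4 h, against 4.19% of all genes, or at 0 h, against 0.44%, by limma. At an unadjusted p under 0.05 there was 1 of the 7 at each of these times, Arg2 at 4 h and Acod1 at 0 h. The median difference of the 7 was 0.12 at 0 h, 0.11 at 4 h and -0.23 at 16 h, beside medians of 0.0010, 0.043 and 0.12 over all genes.

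Ass1, argininosuccinate synthase, takes up the citrulline that Nos2 releases and starts its return to arginine. At 0 h, Ass1 stood at 13.3, 15.1 and 14.2 CPM in the WT libraries and at 16.4, 19.2 and 13.0 CPM in the KO libraries. After 4 h of LPS the WT libraries held 67.8, 88.3 and 67.9 CPM of Ass1 and the KO libraries 78.4, 116 and 70.9 CPM. At 16 h, Ass1 was at 137, 169.8 and 183 CPM in WT and at 167, 193 and 169 CPM in KO. The level climbed at each step in both genotypes, and WT and KO overlapped at every time. Ass1 rose from 0 to 4 h by 2.31 in WT and 2.36 in KO, and again from 4 to 16 h by 1.12 (limma adjusted p = 8.67e-06) and 1.01 (adjusted p = 2.53e-05). The 16 h means were 11.5-fold and 10.9-fold above the untreated means. KO differed from WT by 0.17 at 0 h (95% interval -0.18 to 0.51), 0.22 at 4 h (-0.13 to 0.57) and 0.11 at 16 h (-0.24 to 0.46, -0.0011 under median-ratio scaling), none of them called.

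Arg1, the cytosolic arginase that competes with Nos2 for arginine, answered LPS late. Untreated WT libraries held 0.241, 0.535 and 0.200 CPM of Arg1 and untreated KO libraries 0.0656, 0.320 and 0.905 CPM. Its 4 h values were 0.260, 0.304 and 0.223 CPM in WT and 0.400, 0.156 and 0.127 CPM in KO. Its 16 h values were 147, 210.3 and 170.1 CPM in WT and 234, 176 and 322 CPM in KO. At 0 and 4 h every library was below 1 CPM, on 1 to 13 reads, and at 16 h every library was above 100 CPM. At 16 h 2 of the 3 KO libraries lay above all WT libraries and KO replicate 2 lay inside the WT range. The gene passed the filter on low values through the 16 h groups alone, so its change with LPS is given as a description: 16 h stood above 4 h by 7.12 in WT and 7.60 in KO. The change from 0 to 4 h was -0.062 in WT (adjusted p = 0.792, 0.15 under median-ratio scaling) and -0.19 in KO (adjusted p = 0.429), in values too low to show a change of this size. KO differed from WT at 16 h by 0.44 ± 0.218 (SE, 95% interval -0.017 to 0.90, adjusted p = 0.131). Without KO replicate 2 at 16 h, the library with the highest stromal marker sum and the lowest Arg1 of the KO group, the difference was 0.65 and was called (adjusted p = 0.0472). The part of the stromal RNA in this was not tested.

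Set against each other within a library, the 2 arginine users leaned differently in the 2 genotypes at 16 h. The ratio of Nos2 to Arg1 CPM was 2.36, 1.63 and 2.35 in the WT libraries and 0.949, 0.803 and 0.440 in the KO libraries, with no overlap. The size of such a ratio carries the lengths of both transcripts, so it is read only between libraries, and as it reuses the 16 h values of both genes it is a description with no test. The ratio of Acod1 to Nos2 was 9.46, 9.37 and 8.05 in WT and 13.1, 21.2 and 16.5 in KO, again with no overlap. The ratio of Gch1 to Nos2 was 0.279, 0.278 and 0.228 in WT and 0.310, 0.521 and 0.496 in KO, where Nos2 was lower in KO by more than Gch1 was.

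Arg2, the mitochondrial arginase, stayed at a few CPM after LPS and varied between KO libraries. Arg2 was listed at 0.322, 0.612 and 0.534 CPM in WT and at 0.0001, 0.449 and 0.488 CPM in KO before LPS. Its 4 h values were 4.89, 3.59 and 4.55 CPM in WT and 3.71, 9.14 and 9.67 CPM in KO. After 16 h WT libraries had 8.40, 6.43 and 10.00 CPM of Arg2 and KO libraries 9.99, 8.96 and 13.4 CPM. KO replicate 1 at 0 h carries the table's floor value and stands for no read, and the other untreated values rest on at most 8 reads. At 4 h KO replicates 2 and 3 lay well above the WT libraries and replicate 1 lay among them, and at 16 h the genotypes overlapped. Arg2 passed the filter on low values through the LPS groups alone, so its change from 0 to 4 h is given as a description: 4 h stood above 0 h by 1.84 in WT and 2.63 in KO. From 4 to 16 h it rose by 0.79 in WT (limma adjusted p = 0.0119), a call lost with a pseudocount of 0.1 (adjusted p = 0.119), under median-ratio scaling (0.41, adjusted p = 0.162), without WT replicate 2 at 4 h (adjusted p = 0.0506) and without WT replicate 3 at 16 h (adjusted p = 0.0572). The same step in KO was 0.54 (adjusted p = 0.0684), and 5 of 13 alternatives called it: a pseudocount of 3 (adjusted p = 0.0475), the replicate block (adjusted p = 0.0181), and leaving out KO replicate 2 at 4 h (0.71, adjusted p = 0.0310), KO replicate 3 at 4 h (0.75, adjusted p = 0.0224) or KO replicate 2 at all times (0.83, adjusted p = 0.0265). KO differed from WT by 0.59 at 4 h (95% interval 0.038 to 1.14, adjusted p = 0.249) and 0.35 at 16 h (-0.20 to 0.90), and without KO replicate 1 at 4 h the 4 h difference was 0.97 and called (adjusted p = 0.0193).

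Acod1 (also called Irg1) makes itaconate, a metabolite that restrains succinate dehydrogenase and activates the NRF2 stress response. At 0 h, Acod1 stood at 4.50, 6.88 and 3.74 CPM in the WT libraries and at 4.26, 8.71 and 9.54 CPM in the KO libraries. After 4 h of LPS the WT libraries held 6624, 6734 and 6349 CPM of Acod1 and the KO libraries 7149, 6898 and 7231 CPM. At 16 h, Acod1 was at 3295, 3207 and 3211 CPM in WT and at 2902, 3002 and 2329 CPM in KO. The KO libraries lay above the WT libraries at 4 h and below them at 16 h, without overlap, and at 0 h they overlapped. Acod1 rose from 0 to 4 h by 10.12 in WT and 9.77 in KO, or 1304-fold and 945-fold in mean CPM. It then fell by 1.02 in WT (limma adjusted p = 1.75e-04) and fell by 1.38 in KO (adjusted p = 6.45e-06). The differences of KO from WT were 0.11 at 4 h (95% interval -0.31 to 0.53, adjusted p = 0.822) and -0.25 at 16 h (-0.67 to 0.17, adjusted p = 0.360), so neither passed the test. At 0 h the difference was 0.46 (adjusted p = 0.435), and without KO replicate 1, the lowest of its group, it was 0.78 and called (adjusted p = 0.0243). The change of the KO effect from 0 to 16 h was -0.71 (adjusted p = 0.128), and -1.03 without that library (adjusted p = 0.0106).

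LPS changed many genes of the table, so the members' rises are read against that. From 0 to 4 h limma called 6 of the 7 higher in WT and 6 of the 7 higher in KO, beside 15.6% of all genes in each genotype. From 0 to 16 h all 7 were called higher in both genotypes, beside 18.3% of all genes in WT and 17.8% in KO. From 4 to 16 h 3 of the 7 rose and 3 fell in WT (51% of all genes rose and 22.1% fell), and 2 rose and 4 fell in KO (55.7% rose and 19.6% fell). Nos2 and Arg2 passed the filter on low values through the LPS groups and Arg1 through the 16 h groups, so the counts describe the 7 and support nothing further. The 2 comparisons against 0 h within a genotype share the untreated libraries. The median change of all genes from 0 to 4 h in WT was -0.81 as deposited and -0.026 under median-ratio scaling. The shares rest on the scaling too. From 0 to 4 h in WT the calls went from 1876 higher and 8593 lower to 4273 higher and 4481 lower under median-ratio scaling. From 4 to 16 h they went from 6153 higher and 2669 lower to 3971 and 4423 in WT. In KO they went from 6719 higher and 2367 lower to 4102 and 4227. Under that scaling the 4 h rises in WT were 10.76 for Nos2, 10.95 for Acod1, 6.22 for Slc7a2, 4.46 for Gch1, 3.19 for Ass1 and 2.37 for Arg2.

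**Figure D3:**
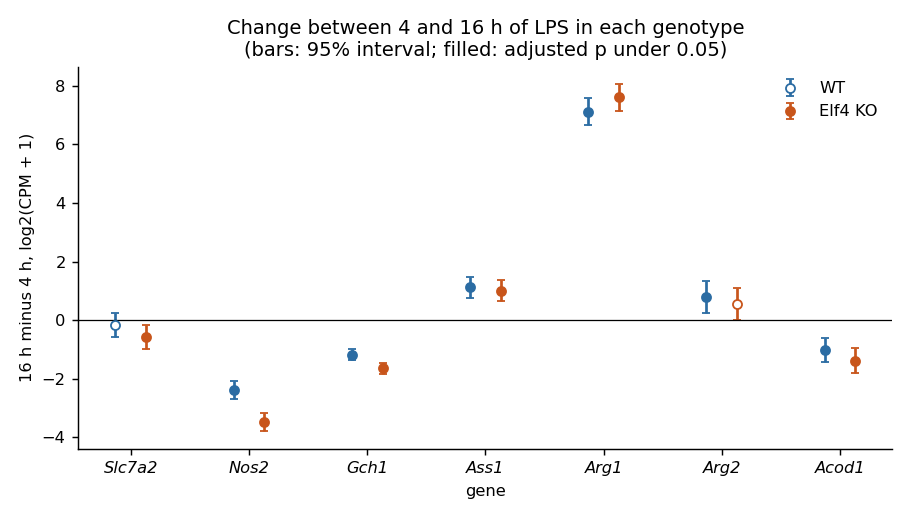
Change from 4 to 16 h of LPS on the log2(CPM + 1) scale (vertical axis) for each gene in WT (blue) and Elf4 KO (orange) macrophages, with 95% intervals from limma and filled points for an adjusted p below 0.05. Arg1 rose by 7.12 in WT and 7.60 in KO, while Nos2 fell by 2.39 in WT and fell by 3.48 in KO.

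By time course and by overlap between groups the 7 were sorted into 3 sets. Nos2, Gch1 and Acod1 peaked at 4 h and were called lower at 16 h in both genotypes. Arg1 and Ass1 were highest at 16 h in both, with every 16 h library above every 4 h library. Mean Arg2 was also highest at 16 h in both. Its WT libraries did not overlap between 4 h (3.59 to 4.89 CPM) and 16 h (6.43 to 10.00 CPM), while its KO libraries did. Slc7a2 and Arg2 had adjacent groups that overlapped after LPS: for Slc7a2 the order of the means was KO at 4 h, WT at 4 h, WT at 16 h and KO at 16 h, each overlapping the next, and for Arg2 it was KO at 16 h, WT at 16 h, KO at 4 h and WT at 4 h, again each overlapping the next. For Nos2, the order from high to low was WT and KO at 4 h, which overlapped, then WT at 16 h, KO at 16 h and the untreated groups, with a gap at each of these steps. The genes whose 6 group means ran closest to a member's, by root mean square distance on the centred log2 scale over 12058 genes, were Il1a (0.355) and Ptgs2 (0.773) for Nos2, Cflar (0.110) and Nod2 (0.113) for Gch1, Clec4e (0.137) and Pfkfb3 (0.184) for Slc7a2, Pdpn (0.159) and Ntng2 (0.204) for Ass1, and Fgr (0.156) and Igsf6 (0.259) for Arg2. For Acod1 they were Il1b (0.452) and Nos2 itself (0.849), and for Arg1 Siglece (1.08) and Gm5150 (1.27), the widest distances of the 7. Il1a, the interleukin-1 alpha gene, had means of 325.3 CPM in WT and 168.4 CPM in KO at 16 h.

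The genes around these 7 in the same pathways, 95 genes in 7 lists of which 86 passed the filter, were called in both directions at 16 h. In KO cells 20 of the 86 were called higher and 17 lower at 16 h, beside 20.9% and 9.65% of all genes, 4 higher and 4 lower at 4 h, beside 2.38% and 1.81%, and 0 at 0 h by limma (14 at an unadjusted p under 0.05), with medians of 0.081, 0.047 and -0.030 beside the all-gene medians given above. Among the 8 tested genes of arginine transport and the urea cycle only Slc3a2, the heavy chain that pairs with several amino acid transporters, was called at 16 h, at -0.27 (limma adjusted p = 0.0441). Slc3a2 was called under median-ratio scaling, where Asl, the enzyme after Ass1, was called lower as well, and was not called without KO replicate 2 (-0.22, adjusted p = 0.150). Of the 6 tested genes of tetrahydrobiopterin synthesis and recycling, 2 were higher, the recycling enzyme Qdpr, at 0.41 (adjusted p = 0.00863), and the synthesis enzyme Spr, at 0.31 (adjusted p = 0.0437). Under median-ratio scaling Qdpr was still higher, Spr was not called and Pts, the synthesis enzyme after Gch1, was lower. Spr was also not called without KO replicate 2 (0.24, adjusted p = 0.136).

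Nostrin, a protein that binds endothelial nitric oxide synthase and governs its traffic, was called lower among the 5 tested synthase partners and sensors. At 16 h it was at 5.19, 4.68 and 5.59 CPM in WT and at 0.841, 1.80 and 1.01 CPM in KO, a difference of -1.49 (limma adjusted p = 1.94e-04), and at 4 h it was lower by 0.84 (adjusted p = 0.0409). WT and KO did not overlap at either time, and both calls held under median-ratio scaling. Before LPS Nostrin was already at 19.4, 18.2 and 18.1 CPM in WT and at 7.80, 11.0 and 14.7 CPM in KO. These groups did not overlap either, but the difference at 0 h was not called. Without KO replicate 2 the 16 h call held and the 4 h difference was -0.70 and not called (adjusted p = 0.131). The synthases Nos1 and Nos3 did not pass the filter on low values. Nos1ap and Adh5 were called higher in KO at 16 h, at 0.58 (adjusted p = 0.0157) and 0.24 (adjusted p = 0.0390), with Nos1ap at a mean of 1.33 CPM in KO and 0.556 CPM in WT. Adh5 was not called under median-ratio scaling (0.13, adjusted p = 0.251), and Nos1ap was not called without KO replicate 2 (0.46, adjusted p = 0.0771).

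Downstream of the arginases, 14 genes of ornithine, polyamine and proline metabolism gave 3 higher and 3 lower in KO at 16 h, beside 20.9% and 9.65% of all genes. Oat, which turns ornithine towards proline and glutamate, was at 47.0, 51.5 and 45.4 CPM in WT and 84.1, 101 and 84.7 CPM in KO, and Srm, spermidine synthase, was at 7.96, 8.91 and 9.80 against 19.1, 27.2 and 18.2 CPM. All KO libraries lay above all WT libraries for both genes. Oat differed by 0.89 (limma adjusted p = 5.01e-05) and Srm by 1.17 (adjusted p = 0.00427). Sat1 and Smox, which break polyamines down, were lower by 0.41 and 0.38 (adjusted p = 0.0167 and 0.0232). The antizyme Oaz1 was called higher and the antizyme inhibitor Azin1 lower, at 0.20 (adjusted p = 0.0455) and -0.30 (adjusted p = 0.0202). Odc1, the enzyme that makes putrescine from ornithine, was at 0.14 (adjusted p = 0.582) and was not called. Oaz1 was not called under median-ratio scaling (0.079, adjusted p = 0.424). Without KO replicate 2 at all times, an alternative chosen after the data were seen for these lists, Oat and Srm were called higher and no gene of the list lower.

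The list around itaconate holds 16 enzymes and carriers of citrate, isocitrate and succinate, and 9 were called higher and 1 lower in KO cells at 16 h, with a list median of 0.23, beside 20.9% and 9.65% of all genes and an all-gene median of 0.12. They included Idh1, which oxidises isocitrate in the cytosol, at 78.8, 72.9 and 78.3 CPM in WT and 114, 132 and 159.5 CPM in KO, where all KO libraries lay higher (0.80, limma adjusted p = 9.23e-04). Clybl, a mitochondrial enzyme that clears citramalyl-CoA from itaconate breakdown, was at 4.90, 5.21 and 4.56 against 8.34, 8.16 and 7.87 CPM (0.63, adjusted p = 6.07e-04). Idh3a, a citric acid cycle subunit that acts on isocitrate, differed by 0.72 (adjusted p = 0.00453), and Sucla2, a subunit of succinyl-CoA ligase, by 0.38 (adjusted p = 0.00190). Others called higher included Cs, Sdha, Sdhc and Suclg1, and Slc25a1, the mitochondrial citrate carrier, was at -0.22 (adjusted p = 0.0391). The count fell to 4 higher (Idh1, Idh3a, Sucla2 and Clybl) and 2 lower (Slc25a1 and Acly) under median-ratio scaling, and it was 8 higher and 0 lower without KO replicate 2. In WT cells all 16 were called lower at 4 h of LPS than at 0 h, as were 71.3% of all genes. The list median was -0.78 where the median of all genes was -0.81. Under median-ratio scaling 6 of the 16 were called higher and 3 lower, beside 4273 higher and 4481 lower among all genes.

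Of 12 genes of the NRF2 pathway, which itaconate can activate, 3 were higher in KO at 4 h and 0 lower, beside 2.38% and 1.81% of all genes. Under median-ratio scaling the 4 h count was 2 higher (Slc7a11 and Gsr) and 1 lower (Keap1). Slc7a11, the cystine importer, was at 136, 199.5 and 159 CPM in WT and 292, 352 and 320.4 CPM in KO with no overlap (0.98, limma adjusted p = 0.00617), and at 16 h the genotypes overlapped. Gsr, glutathione reductase, differed by 0.72 (adjusted p = 0.00565) and Nfe2l2, which encodes NRF2 itself, by 0.41 (adjusted p = 0.0195, not called under median-ratio scaling or without KO replicate 2). At 16 h 4 of the 12 were lower and 1 higher, beside 9.65% and 20.9% of all genes. They were Hmox1, at 2531, 2593 and 2419 CPM in WT and 2027, 1684 and 1935 CPM in KO, Srxn1 (-0.57, adjusted p = 0.00342), Prdx1 (-0.40, adjusted p = 0.0116) and Keap1. Hmox1, heme oxygenase, differed by -0.42 (adjusted p = 0.0228), and all KO libraries lay below all WT libraries, but it was not called without KO replicate 2 (-0.34, adjusted p = 0.0607). Nqo1 was higher at 16 h, at 0.70 (adjusted p = 0.0342), and was not called under median-ratio scaling.

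The last list holds 25 transcription factors, receptors and cytokines that act on the Nos2 and Arg1 genes. At 4 h 1 was higher and 3 lower in KO (2.38% and 1.81% of all genes), and at 16 h 3 were higher and 7 lower (20.9% and 9.65%). The 16 h counts were 1 higher and 9 lower under median-ratio scaling, and 4 higher and 6 lower without KO replicate 2. Interferon beta (Ifnb1) was at 14.6, 13.1 and 12.8 CPM in WT and 10.2, 6.68 and 3.05 CPM in KO at 4 h (-1.04, limma adjusted p = 0.0194), at a time when the genotypes overlapped in Nos2. Irf8 was lower at 4 h, by 0.83 (adjusted p = 0.00145). At 16 h Stat2, a factor of type I interferon signalling, was at 686, 665 and 696 CPM in WT and 399, 319 and 307 CPM in KO, and Il10 at 22.9, 18.1 and 20.0 against 10.3, 7.48 and 6.38 CPM, both lower in every KO library. Their differences were -1.01 (adjusted p = 0.00103) and -1.25 (adjusted p = 6.72e-05). Irf1 stood at -0.64 (adjusted p = 0.00122) and the adaptors Myd88 and Ticam1 at -0.24 (adjusted p = 0.0128) and -0.47 (adjusted p = 0.00693). Hif1a, a factor that serves the Nos2 promoter and glycolytic genes, went the other way, at 0.59 at 4 h (adjusted p = 0.00286) and 0.64 at 16 h (adjusted p = 2.16e-04). These calls of Ifnb1, Irf8 at 4 h, Stat2, Il10, Irf1, Myd88, Ticam1 and Hif1a all held under median-ratio scaling, while Irf8 and Ifngr1, called higher at 16 h, were not called there and Jun and Rela were called lower. Without KO replicate 2, Myd88 was not called.

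**Figure D4:**
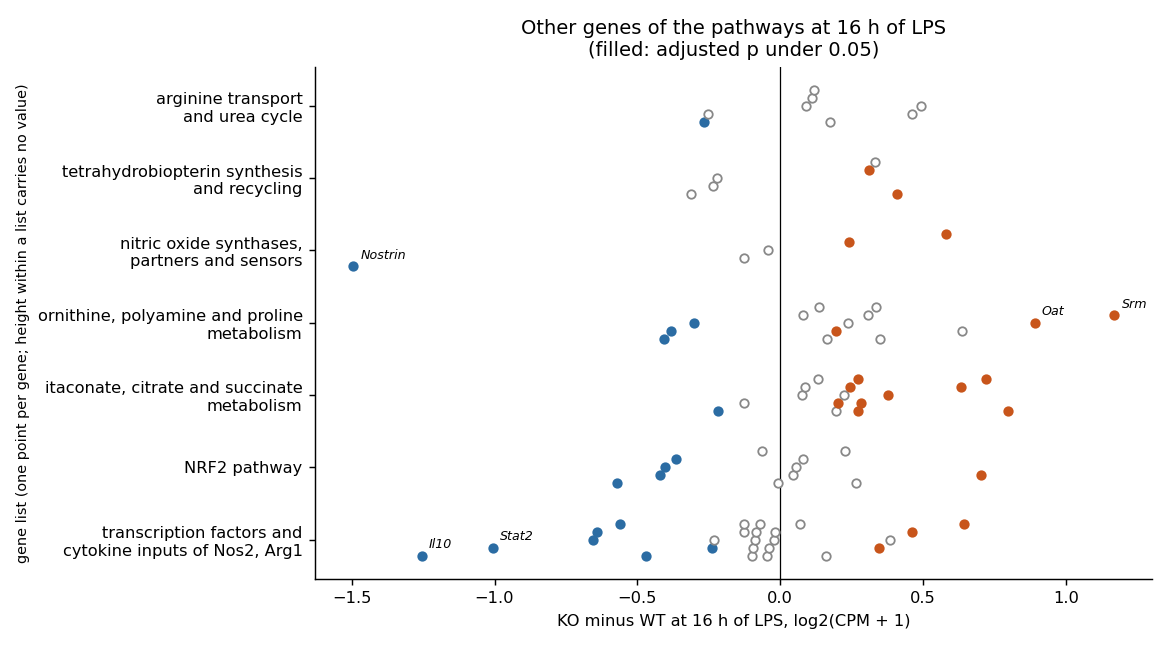
Difference of Elf4 KO from WT at 16 h of LPS on the log2(CPM + 1) scale (horizontal axis) for the 86 tested genes of 7 pathway lists, 1 point a gene, filled orange where called higher and blue where called lower. Called genes lie on both sides, from Nostrin (-1.49) to Srm (1.17), and 9 of the 16 genes of the itaconate, citrate and succinate list are called higher.

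In T cells these enzymes were read in 4 further tables, each normalised by itself. The cells were naive CD4 T cells (0 h) and pathogenic and non-pathogenic Th17 cells (48 h), C57BL/6 in all groups. Nos2, Arg1, Arg2 and Acod1 were below 0.2 CPM wherever listed and Slc7a2 was not listed, so only Ass1 and Gch1 could be tested. In the naive libraries labelled Elf4 KO, Ass1 was at 10.6, 10.2, 9.78 and 11.1 CPM, against 7.68, 8.11 and 7.40 CPM in WT, with no overlap. The difference was 0.39 ± 0.0809 (SE, limma adjusted p = 0.0137, with 4.39% of 12904 genes called higher, and 1036 called either way, 466 to 1380 with 1 library left out), and it was not called without WT replicate 1 (adjusted p = 0.0565) or without WT replicate 3 (adjusted p = 0.0512). Elf4 itself averaged 189 CPM in these libraries and 191 CPM in WT, so it did not bear out the label. Gch1 there differed by -0.25 (adjusted p = 0.198). In mice with the Elf4 W250S change, neither gene was called in naive cells (4.16% of genes called), pathogenic Th17 cells (2.06%) or non-pathogenic Th17 cells (7.06%), and 0 of these 6 tests had an unadjusted p under 0.05. The counts behind these shares move with single libraries: leaving out 1 library gave 204 to 557 genes in naive cells (516 with all), 42 to 370 in pathogenic cells (263 with all) and 54 to 2112 in non-pathogenic cells (905 with all). Naive W250S libraries held 13.1, 13.2 and 13.2 CPM of Ass1 and their WT libraries 11.6, 11.9 and 11.0 CPM, which did not overlap and differed by 0.18 (adjusted p = 0.443).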

How the data were processed

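The macrophage values are CPM, read counts scaled to library size, that the authors deposited, 1 column a library, and the T cell tables are deposited CPM too. Reads were processed in Partek 10.0.21.0411 on build mm10, per the submitters' processing notes, which also list BWA, Bowtie2, MACS2 and DESeq2 with no role. The aligner and counter of the CPM are not given in the sources used here. Macrophage columns sum to 950599 to 954161 CPM and T cell columns to 472848 to 543838, so the listed rows hold less than the whole scaled total. Whether rows were left out or the scaling counted reads outside the listed genes is not known. Of low macrophage values, 94.9 to 96.2% lie within 0.1 of a whole multiple of 1 read. The values also hold fractions of a read and a floor, so whole reads were not recovered and no count model was used.

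CPM were tested with limma 3.58.1 in R 4.3.3 (lmFit and eBayes with a trend) on log2(CPM + 1), all 18 macrophage libraries in 1 fit with 1 mean per group, each T cell table in its own fit, genes at 1 CPM or more in 3 libraries or more, two-sided, with Benjamini-Hochberg adjustment over all genes and a threshold of 0.05. A fold on this scale understates the change of low genes. The fit was tested on simulated data. 1 gene listed as identical rows was kept once. The alternatives were pseudocounts of 0.1 and 3, no filter, a filter at 5 CPM, median-ratio scaling, a replicate block, a fit to 1 time alone, each library left out in turn, and KO replicate 2 left out at all times. The 7 genes, the pathway and marker lists and the tests were chosen with earlier results of these data known. Named were all 7 genes at every time, for each list the tested genes with the largest called differences, and for each of the 7 the 2 genes nearest in group means, while others that the text names from the lists were chosen after their values were seen. Promoters and gene positions are from RefSeq GRCm38.p6. The ATAC table was not used here. Some genes of the pathway lists are counted in the lists and are not reported here by name.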

Additional observations from a re-analysis of the deposited data

Results flagged for a closer look

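The KO effect on Nos2 differed between times by a test of the difference itself. It was lower at 16 h than at 0 h on the log2 scale (-1.26, SE 0.207, limma adjusted p = 0.00366) and lower at 16 h than at 4 h by the value -1.09 (SE 0.207, adjusted p = 0.00957). All 3 KO libraries at 16 h were below all 3 WT libraries, while the genotypes overlapped at 0 h and 4 h.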

How the results depend on the processing

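Nos2 and Gch1 were called lower in KO at 16 h under every alternative run, at -1.35 to -1.03 and -0.52 to -0.39. Over 92 values of single genes and 1303 alternatives, 1247 kept direction and side of the threshold, 8 lost a call, 14 gained one and 34 turned sign, none of them a called value. The number of the 7 called for the KO effect at 16 h minus 4 h went from 1 to 2 with a pseudocount of 3 and with the replicate block, which adds Gch1 (adjusted p = 0.0353). With libraries left out one at a time, it stayed at 1 there, was 1 to 2 for 16 h minus 0 h (Gch1 without WT replicate 1 at 0 h, Acod1 without KO replicate 1 at 0 h), 0 to 1 at 0 h (Acod1), 0 to 1 at 4 h (Arg2), 2 to 3 at 16 h (Arg1), and 0 to 1 in naive cells labelled KO (Ass1).

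Sign changes were in differences that were not called. Slc7a2 for the KO effect at 4 h minus 0 h was 0.010 with a pseudocount of 3. Under median-ratio scaling Ass1 at 16 h was -0.0011, Arg1 at 4 h against 0 h in WT 0.15 and Gch1 in naive W250S cells -0.040. Without KO replicate 2 at all times, the changes of the KO effect were -0.032 (Ass1) and 0.13 (Slc7a2) for 4 h minus 0 h, 0.0061 (Ass1) for 16 h minus 0 h, and 0.041 (Arg2) and 0.038 (Ass1) for 16 h minus 4 h. Leaving out 1 library gave KO against WT ranges of -0.22 to 0.015 for Gch1 at 0 h, -0.15 to 0.27 for Arg1 at 0 h, -0.14 to 0.012 for Arg1 at 4 h and -0.0059 to 0.20 for Ass1 at 16 h. The KO effect at 4 h minus 0 h ranged over -0.16 to 0.22 for Slc7a2, -0.16 to 0.20 for Ass1 and -0.31 to 0.10 for Arg1. For Ass1 it ranged over -0.19 to 0.073 at 16 h minus 0 h and -0.25 to 0.10 at 16 h minus 4 h. Arg1 at 4 h against 0 h ranged over -0.13 to 0.048 in WT and -0.38 to 0.043 in KO. In W250S cells Gch1 ranged over -0.12 to 0.093 (naive) and -0.11 to 0.18 (pathogenic Th17), and Ass1 over -0.10 to 0.0080 (non-pathogenic Th17). The cause was not tested.

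Replicate numbers did not pair KO with WT libraries. Deviations of same-numbered KO and WT libraries of 1 time correlated at -0.197 to 0.123 (median 0.038, 9 pairs, 2 over 0.1), and those with different numbers at -0.329 to 0.263 (18 pairs, 7 over 0.1). Within 1 genotype, same-numbered libraries of 2 times correlated at 0.057 to 0.533 (median 0.219, 18 pairs, 16 over 0.1), and different numbers at -0.484 to 0.0999 (36 pairs, 0 over 0.1). A number thus links libraries across times in the data, although the header gives each a mouse of its own. The Th17 columns carry a number after the genotype. It could not be tied to the sample titles, so it was not used as a replicate number. Besides the change above, the replicate block brought Arg2 at 16 h against 4 h in KO below the threshold (adjusted p = 0.0181). Genes called at 0 h numbered 53 and ranged from 1 (fit to that time alone) to 95, and at 4 h 505 and 247 to 594. Count models on reads were not run, since whole reads were not recovered. Depth limits Arg1 at 0 and 4 h, Arg2 at 0 h and Nos2 at 0 h, which rest on 18 reads or fewer a library.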
